A study of Homo sapiens with 18 samples.

Results

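The genes described here are 10 genes of oxidant and xenobiotic defence, most of them known targets of the transcription factor NRF2: NQO1, GCLC, GCLM, TXNRD1, SRXN1, PRDX1, AKR1B10, AKR1C3, ABCC2 and ABCC3. They were taken by gene symbol from a poly(A) count table of 47021 genes, and all 10 were among the 14732 genes that passed the filter on low counts. The study measured RNA in DLD1 cells, a human colorectal adenocarcinoma line, after lentiviral delivery of CRISPR guides. The tested cells carried sgZ1 or sgZ3, which are guides against the zinc finger gene ZNF692, and are labelled as ZNF692 knockouts. The control cells carried the guide sgC and are labelled wild type. Each of the 3 groups has 3 poly(A) libraries, and all cells were grown in DMEM with 5% serum and selected in puromycin at 10 µg/ml from 48 h after infection. The labels do not say whether a line is a clone or a pool, nor whether the libraries of a group are separate cultures. The p-values therefore measure how far these libraries spread, which may be technical.

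NRF2, encoded by NFE2L2, is held low by KEAP1, an adaptor that brings it to the CUL3 and RBX1 ubiquitin ligase. Oxidants and electrophiles modify KEAP1, NRF2 then accumulates, pairs with a small MAF protein and binds antioxidant response elements near its target genes, a site that BACH1 can occupy as a repressor. The targets make glutathione, recycle thioredoxin and peroxiredoxin, reduce quinones and carbonyls, and pump conjugates out of the cell. In colorectal cancer cells this programme is known for its part in resistance to oxidants and drugs.

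The core antioxidant response element was searched as TGACNNNGC on both strands in the RefSeq promoter windows (GRCh38.p14), each from 250 bases before to 50 after a gene's start. The table held windows for 7 of the 10 genes, 9 windows in all, and 3 windows of 2 genes, GCLM and TXNRD1, held the motif. Among all 35116 windows 13.3% held it, so a match is a description of letters and not a bound site. The 4 windows printed here are those 3 and that of ABCC2, the gene with the largest difference among the 10, in which these letters were not found. Each reads 5′ to 3′ on the gene's strand, and capitals mark the motif, which reads as its reverse complement where it lies on the other strand.
GCLM, chr1:93909381-93909680, minus strand: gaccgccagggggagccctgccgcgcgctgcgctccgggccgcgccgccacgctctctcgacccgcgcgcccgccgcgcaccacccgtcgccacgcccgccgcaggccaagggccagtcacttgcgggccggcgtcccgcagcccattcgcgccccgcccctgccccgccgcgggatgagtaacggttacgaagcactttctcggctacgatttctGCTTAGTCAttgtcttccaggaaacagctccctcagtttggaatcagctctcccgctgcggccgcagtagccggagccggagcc
TXNRD1, upstream start, chr12:104215529-104215828, plus strand: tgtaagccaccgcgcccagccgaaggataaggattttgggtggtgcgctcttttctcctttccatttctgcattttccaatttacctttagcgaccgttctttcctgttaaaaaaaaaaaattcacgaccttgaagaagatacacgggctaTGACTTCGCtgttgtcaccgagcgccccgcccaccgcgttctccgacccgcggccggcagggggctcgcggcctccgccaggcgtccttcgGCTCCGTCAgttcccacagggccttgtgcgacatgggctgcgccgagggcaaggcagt
TXNRD1, downstream start, chr12:104286782-104287081, plus strand: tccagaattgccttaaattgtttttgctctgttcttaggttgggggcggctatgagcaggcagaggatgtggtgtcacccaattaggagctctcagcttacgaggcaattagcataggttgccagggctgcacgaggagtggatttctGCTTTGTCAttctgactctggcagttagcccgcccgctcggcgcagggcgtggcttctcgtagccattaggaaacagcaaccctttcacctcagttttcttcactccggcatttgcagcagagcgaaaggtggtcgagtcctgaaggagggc
ABCC2, chr10:99782390-99782689, plus strand: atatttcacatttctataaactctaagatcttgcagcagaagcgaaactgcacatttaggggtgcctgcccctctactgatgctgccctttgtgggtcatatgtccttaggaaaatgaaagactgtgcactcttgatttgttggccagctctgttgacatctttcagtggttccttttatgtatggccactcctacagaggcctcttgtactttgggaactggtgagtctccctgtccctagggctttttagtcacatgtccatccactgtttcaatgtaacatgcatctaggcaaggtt
The motif began at position -34 from the start site in GCLM, at -99 and -8 in the upstream window of TXNRD1 and at -102 in its downstream window. AKR1C3, NQO1, GCLC and SRXN1 had windows without it, and PRDX1, AKR1B10 and ABCC3 are named only. Sequence outside the windows was not searched, so a window without the motif does not show that a gene lacks the element.

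Library totals ran from 16044224 to 24535642 counts, and the 10 genes took between 0.171% and 0.188% of them. Levels are given as CPM, counts scaled to library size, where 1 CPM stands for 14.8 to 24.4 counts depending on the library. ZNF692 itself had 10.3 ± 1.01 CPM in sgZ1, 7.43 ± 0.988 CPM in sgZ3 and 6.51 ± 0.446 CPM in sgC (SD, n = 3 each), so its mean was not lower with either guide, and it was called higher in sgZ1 (log2 fold change 0.66 ± 0.141, adjusted p = 0.00475). A guide can disrupt a protein without lowering the RNA, and this level does not check the labels. Summed epithelial markers, 12 genes led by the keratins and EPCAM, were high everywhere, at 8980 to 9900 CPM in sgZ1, 11300 to 12300 CPM in sgZ3 and 9250 to 10300 CPM in sgC. The leukocyte list of 10 genes stayed between 5.5 and 7.34 CPM. Most of this was CD14, at 4.12 to 5.84 CPM, and each other member was at 1.56 CPM or less, with CD68 at 0 in every library. The endothelial list of 8 genes summed to 35 to 42.3 CPM in sgZ1, 19.6 to 21.1 CPM in sgZ3 and 16.3 to 18.3 CPM in sgC. The mesenchymal list of 18 genes summed to 93.3 to 225 CPM in sgZ1, 38.9 to 206 CPM in sgZ3 and 35.2 to 37.2 CPM in sgC. Of these libraries, sgZ1 replicate 2 and sgZ3 replicate 3 stand apart. VIM was at 22.9 CPM and 21.2 CPM in them, and at 1.22 CPM or less in the other 7. SPARC was at 64.3 CPM and 66.8 CPM in them, and at 5.91 CPM or less in the other 7. Not every gene of the list followed this pattern. COL6A1 was high in all sgZ1 libraries, at 30.8, 38.5 and 36.3 CPM, against 0.877 CPM or less in sgC. COL6A2 averaged 20.3 CPM in sgZ1 and 0.0503 CPM in sgC. COL1A2, DCN, LUM and PDGFRA stayed at 0.203 CPM or less in every library. Results of the 10 genes are therefore also given without sgZ1 replicate 2 and sgZ3 replicate 3 where a call for either guide or between guides differs. Without them, 39.5% of all tested genes were called for sgZ1, 55.3% for sgZ3 and 53.2% for sgZ3 over sgZ1. The sgZ1 libraries further stand apart in MSH6, a mismatch repair gene, at 70.5 ± 3.85 CPM in sgZ1, 5.79 ± 2.37 CPM in sgZ3 and 7.62 ± 1.62 CPM in sgC (SD, n = 3 each). The part of these differences in the results below was not tested.

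Some of the 10 genes passed the test against sgC with each guide, and ABCC2 with sgZ1 was by far the largest difference. With sgZ1, PRDX1 and ABCC2 rose and AKR1C3 and ABCC3 fell, 4 of 10, while 25.8% of all tested genes were called. With sgZ3, PRDX1 rose and AKR1B10 was called higher, 2 of 10, against 36.3% of all tested genes. AKR1B10 entered the test only through its sgZ3 libraries, so its call is not read as support. Over both guides together the same test called PRDX1 and ABCC2 as higher and AKR1C3 and ABCC3 as lower, 4 of 10, against 33.2% of all tested genes. Between the guides, sgZ3 over sgZ1, ABCC3 was higher and ABCC2 lower, 2 of 10, against 28.6% of all tested genes. A call is a Benjamini-Hochberg adjusted p under 0.05 in edgeR's quasi-likelihood test, with all tested genes in the adjustment. Ranges of library values did not overlap between guide and control for 4 of the 10 genes with sgZ1, against 44.3% of all tested genes. With sgZ3 they did not overlap for 5 of the 10, against 52.3%. Of these, GCLC, AKR1C3 and ABCC3 lay below sgC, as did 26.6% of all tested genes. The ranges did not overlap for 3 of the 10 over both guides (23.4%) and for 4 between the guides (35.5%). The counts for sgZ3 and between the guides include AKR1B10, which is not read as support. The share called was above that of all tested genes for sgZ1 and over both guides, and below it for sgZ3 and between the guides. The 10 genes were chosen with results known and these shares were not tested, so nothing particular to the group is read from them. The median log2 fold change of the 10 was -0.12 for sgZ1 and 0.04 for sgZ3, against 0.011 and -0.018 over all tested genes.

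**Figure D1:**
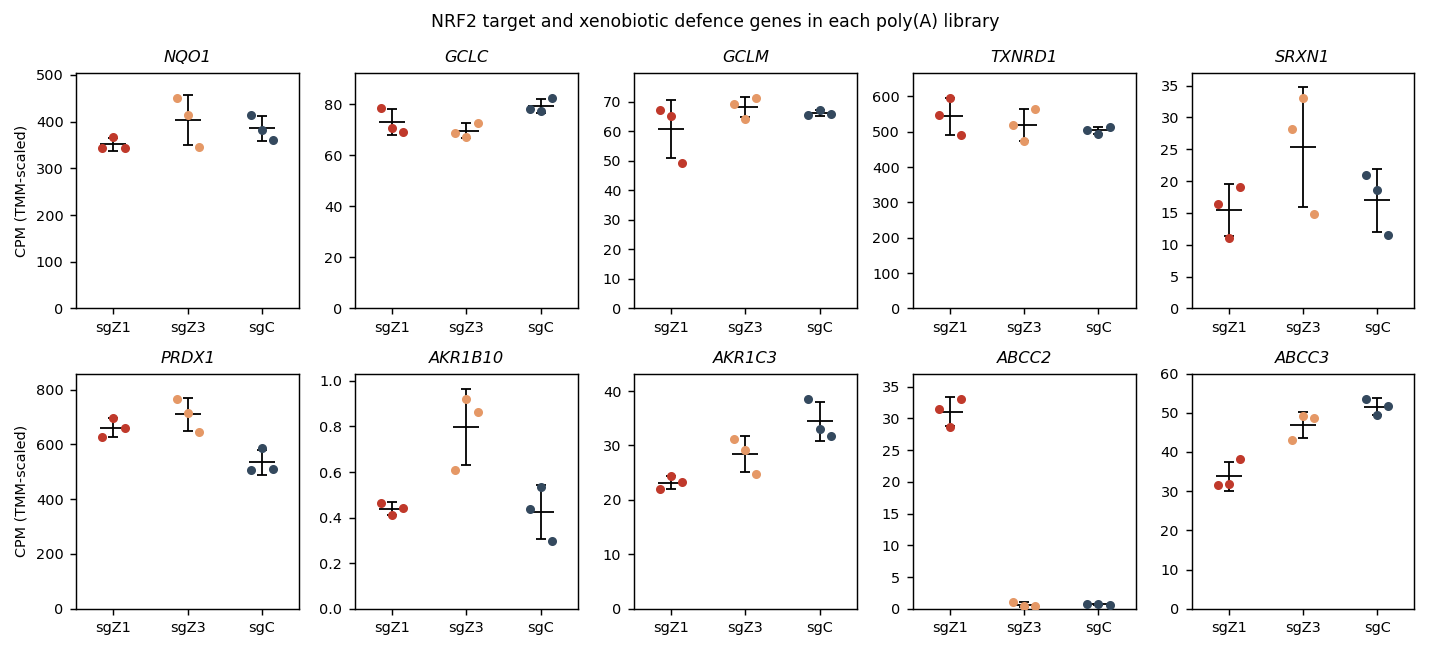
Level of each of the 10 genes in every library, in CPM on linear axes from 0, one panel per gene, with sgZ1, sgZ3 and sgC from left to right; points are libraries and bars are the mean and SD of 3. ABCC2 lies between 28.6 and 33.1 CPM in sgZ1 and at 1.08 CPM or less in the other libraries, while NQO1, GCLM and TXNRD1 overlap between groups.

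GCLC and GCLM are the catalytic and modifier subunits of glutamate-cysteine ligase, the first step of glutathione synthesis. GCLC (chr6:53497341-53616970, minus strand) had 78.7, 70.8 and 69.3 CPM in sgZ1, 68.6, 67.3 and 72.9 CPM in sgZ3 and 78.0, 77.5 and 82.3 CPM in sgC. Every sgZ3 library lay below every sgC library, and sgZ1 overlapped sgC. The log2 fold change was -0.12 ± 0.0885 for sgZ1 (SE, adjusted p = 0.347) and -0.19 ± 0.0889 for sgZ3 (adjusted p = 0.114). The sgZ3 difference passed without sgZ1 replicate 2 and sgZ3 replicate 3, at -0.27 ± 0.0887 (adjusted p = 0.012). It also passed with library totals alone as the scaling (adjusted p = 0.014) and with upper-quartile factors (adjusted p = 0.041). Counts of GCLC are uncertain, since 529 exonic bases are shared with a noncoding gene on the same strand. Per kilobase of all annotated exons together, GCLM stood at 12.2 ± 0.169 CPM in sgC and GCLC at 9.17 ± 0.304 CPM (SD, n = 3). GCLM (chr1:93885205-93909456, minus strand) had 67.2, 65.2 and 49.4 CPM in sgZ1, 69.2, 64.2 and 71.0 CPM in sgZ3 and 65.4, 67.2 and 65.9 CPM in sgC, which overlap. Its log2 fold changes were -0.13 ± 0.115 for sgZ1 (adjusted p = 0.455) and 0.04 ± 0.115 for sgZ3 (adjusted p = 0.795).

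Around these subunits, SLC7A11, the light chain of the cystine importer that feeds glutathione synthesis, fell with both guides. It had 106, 75.1 and 83.6 CPM in sgZ1, 48.5, 42.7 and 58.1 CPM in sgZ3 and 126, 120 and 136 CPM in sgC, with no overlap between any of the groups. The log2 fold change was -0.53 ± 0.14 for sgZ1 (adjusted p = 0.0158) and -1.35 ± 0.143 for sgZ3 (adjusted p = 0.000154). The sgZ1 call was lost without sgZ1 replicate 3 (adjusted p = 0.07), sgZ1 replicate 2 (0.05), sgC replicate 1 (0.055) or sgC replicate 3 (0.067). SLC7A11 was the member that fell in a list of 14 genes of glutathione synthesis and recycling, of which 13 were tested. There, sgZ1 had 1 higher and 1 lower, where 15.5% of all tested genes were higher and 10.3% lower, and sgZ3 had 3 higher and 1 lower, where 19.2% were higher and 17.1% lower. GLRX5, a mitochondrial glutaredoxin of iron-sulfur cluster assembly, rose in both, by 0.52 ± 0.149 in sgZ1 (adjusted p = 0.0237) and 0.7 ± 0.15 in sgZ3 (adjusted p = 0.00447) on the log2 scale. Its sgZ1 call was lost without sgZ1 replicate 2 (adjusted p = 0.076), sgC replicate 1 (0.081) or sgC replicate 3 (0.11).

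Among the genes that recycle oxidised proteins, PRDX1 rose while TXNRD1 and SRXN1 did not pass. PRDX1 (chr1:45511036-45523047, minus strand) encodes a cytosolic peroxiredoxin that reduces hydrogen peroxide. It had 626, 697 and 660 CPM in sgZ1, 766, 716 and 646 CPM in sgZ3 and 505, 588 and 509 CPM in sgC. Every library of either guide lay above every sgC library, and the guides overlapped each other. The log2 fold change was 0.31 ± 0.0944 for sgZ1 (adjusted p = 0.0314), 0.41 ± 0.0945 for sgZ3 (adjusted p = 0.00655) and 0.36 ± 0.0829 over both guides (adjusted p = 0.00725). The difference between guides, 0.1 ± 0.0943, did not pass (adjusted p = 0.433). The sgZ1 call was lost without sgC replicate 1 (adjusted p = 0.14), sgC replicate 3 (0.12), sgZ1 replicate 2 (0.073), sgZ1 replicate 3 (0.072) or sgZ3 replicate 2 (0.051). The call over both guides was lost without sgC replicate 1 (0.058) or sgC replicate 3 (0.051). PRDX1 overlaps 379 exonic bases of MMACHC on the opposite strand and has a pseudogene, and since the counting's strand setting is not given its reads could be shared.

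TXNRD1 (chr12:104215779-104350305, plus strand), the cytosolic thioredoxin reductase, averaged 543 ± 52.5 CPM in sgZ1, 519 ± 44.7 CPM in sgZ3 and 504 ± 10.1 CPM in sgC (SD, n = 3 each). Its fold changes were small, at 0.11 ± 0.0941 on the log2 scale for sgZ1 (adjusted p = 0.43) and 0.04 ± 0.0942 for sgZ3 (adjusted p = 0.751). TXNRD1 carries the motif in both of its windows, and no link between the motif and RNA levels was tested. SRXN1 (chr20:646615-653370, minus strand), which encodes sulfiredoxin, the enzyme that rescues overoxidised peroxiredoxins, had 16.4, 11.1 and 19.0 CPM in sgZ1, 28.2, 33.0 and 14.8 CPM in sgZ3 and 20.9, 18.6 and 11.5 CPM in sgC. These ranges overlap, and the low sgZ3 library is replicate 3. SRXN1's log2 fold change was -0.13 ± 0.314 for sgZ1 (adjusted p = 0.797) and 0.58 ± 0.312 for sgZ3 (adjusted p = 0.171). Without sgZ3 replicate 3 the sgZ3 value was 0.86 and passed (adjusted p = 0.0099), and without both sgZ1 replicate 2 and sgZ3 replicate 3 it was 0.81 ± 0.2 (adjusted p = 0.0054). It passed with no low-count filter as well (adjusted p = 0.00061). The value of sgZ3 over sgZ1, 0.71 ± 0.313 (adjusted p = 0.116), passed without sgZ3 replicate 3 (0.0052) and without both libraries (0.75 ± 0.22, adjusted p = 0.014). Counts of SRXN1 are uncertain, since 2292 exonic bases are shared with another coding gene on the same strand.

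In the list of 14 thioredoxin and peroxiredoxin genes, all tested, sgZ1 had 0 higher and 3 lower (15.5% and 10.3% of all tested genes) and sgZ3 had 4 higher and 3 lower (19.2% and 17.1%). TXNIP, the inhibitor of thioredoxin, fell with both guides. It had 301, 262 and 270 CPM in sgZ1, 150, 160 and 144 CPM in sgZ3 and 712, 589 and 570 CPM in sgC, with no overlap between groups. The log2 fold change was -1.17 ± 0.103 for sgZ1 (adjusted p = 6.76e-06) and -2.04 ± 0.106 for sgZ3 (adjusted p = 2.57e-06). SESN3, a sestrin, also fell, by 0.5 ± 0.122 on the log2 scale in sgZ1 (adjusted p = 0.0108) and by 1.02 ± 0.125 in sgZ3 (adjusted p = 0.000268). Its sgZ1 call was lost without sgZ1 replicate 3 (adjusted p = 0.052) or sgC replicate 1 (0.05). PRDX4, the peroxiredoxin of the endoplasmic reticulum, rose in sgZ3 by 0.82 ± 0.142 (adjusted p = 0.00159).

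NQO1 and the aldo-keto reductases reduce quinones and carbonyls. NQO1 (chr16:69706996-69726951, minus strand), the quinone oxidoreductase most often read as an NRF2 target, had 344, 368 and 344 CPM in sgZ1, 450, 414 and 345 CPM in sgZ3 and 413, 382 and 360 CPM in sgC. All groups overlap, and the low sgZ3 library is replicate 3. The log2 fold change was -0.13 ± 0.103 for sgZ1 (adjusted p = 0.378) and 0.06 ± 0.103 for sgZ3 (adjusted p = 0.655). The sgZ3 value took the other sign with library totals alone (-0.09), with upper-quartile factors (-0.01) and without sgZ3 replicate 1 (-0.02), and passed the test in none of them. The difference between guides, 0.19 ± 0.103 (adjusted p = 0.173), passed without sgZ3 replicate 3 (adjusted p = 0.02) and without that library and sgZ1 replicate 2 (0.29 ± 0.0885, adjusted p = 0.0069). NQO1 overlaps 575 exonic bases of an antisense gene on the opposite strand. Since the counting's strand setting is not given, its reads could be shared.

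AKR1C3 (chr10:5035354-5107686, plus strand), which reduces steroids and prostaglandins, fell with sgZ1. It had 22.0, 24.3 and 23.3 CPM in sgZ1, 31.3, 29.2 and 24.7 CPM in sgZ3 and 38.6, 32.9 and 31.8 CPM in sgC. All sgZ1 libraries lay below all sgZ3 libraries, which lay below all sgC libraries. The log2 fold change was -0.57 ± 0.116 for sgZ1 (adjusted p = 0.00367) and -0.28 ± 0.116 for sgZ3, which did not pass (adjusted p = 0.0759). The sgZ3 value passed without sgZ1 replicate 2 (adjusted p = 0.037), and without that library and sgZ3 replicate 3 it was -0.23 ± 0.0999 (adjusted p = 0.049). It also passed with library totals alone (0.01), upper-quartile factors (0.033) and a mean of at least 10 CPM (0.037). The difference between guides, 0.29 ± 0.117 (adjusted p = 0.0812), passed without sgZ3 replicate 3 (0.017) and without both libraries (0.38 ± 0.112, adjusted p = 0.0053). Over both guides the value was -0.42 ± 0.0985 (adjusted p = 0.00753), which was lost without sgC replicate 1 (0.067).

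AKR1B10 (chr7:134527592-134541408, plus strand), a retinal and aldehyde reductase, was barely detected. It had 10, 10 and 9 counts in sgZ1, 9, 17 and 17 counts in sgZ3 and 9, 10 and 7 counts in sgC. In CPM these were 0.41 to 0.47 in sgZ1, 0.61 to 0.92 in sgZ3 and 0.30 to 0.54 in sgC, so sgZ3 lay above both other groups. AKR1B10 passed the low-count filter through sgZ3, with 3 sgZ3 libraries, 1 sgC library and 0 sgZ1 libraries above 0.5 CPM where 3 were needed. A gene that enters the test through the group where it is high leans towards a difference, so the sgZ3 value of 0.94 ± 0.32 on the log2 scale (adjusted p = 0.0375) is given as a description. With no low-count filter it did not pass (adjusted p = 0.11). The call was also lost without sgC replicate 3 (adjusted p = 0.17), sgC replicate 1 (0.1), sgZ3 replicate 2 (0.14), sgZ3 replicate 3 (0.075), sgZ3 replicate 1 (0.051), sgZ1 replicate 1 (0.055) or sgZ1 replicate 3 (0.052). DESeq2 did not call it (adjusted p = 0.16), nor did the fits with library totals alone (0.068) and without sgZ1 replicate 2 and sgZ3 replicate 3 together (0.085). AKR1B10 has 2 pseudogenes and near copies, so reads of this level are uncertain.

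Near copies of these reductases were measured beside them. AKR1B1, aldose reductase, had 25.5, 30.0 and 26.5 CPM in sgZ1, 7.11, 5.15 and 6.34 CPM in sgZ3 and 8.13, 8.14 and 6.35 CPM in sgC. The sgZ1 libraries lay above all others, at a log2 fold change of 1.86 ± 0.146 (adjusted p = 2.77e-06), and sgZ3 over sgZ1 was -2.14 ± 0.151 (adjusted p = 9.42e-07). AKR1C2 averaged 1.22 ± 0.25 CPM in sgZ1, 1.28 ± 0.0695 CPM in sgZ3 and 1.47 ± 0.0904 CPM in sgC and did not pass (adjusted p = 0.405 and 0.519 for sgZ1 and sgZ3). AKR1C1 was not tested. It had 3, 31 and 2 counts in sgZ1, 2, 4 and 29 counts in sgZ3 and 9, 7 and 10 counts in sgC. Its high libraries, sgZ1 replicate 2 and sgZ3 replicate 3, are those with VIM above 20 CPM.

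The efflux pumps of this set moved in opposite directions with sgZ1. ABCC2, also called MRP2, exports glutathione, glucuronide and drug conjugates across the apical membrane. ABCC2 (chr10:99782640-99852594, plus strand) had 676, 699 and 672 counts in sgZ1, 16, 9 and 8 counts in sgZ3 and 15, 14 and 15 counts in sgC. In CPM the libraries stood at 31.5, 28.6 and 33.1 in sgZ1, at 1.08, 0.49 and 0.41 in sgZ3 and at 0.73, 0.75 and 0.64 in sgC. The sgZ1 libraries thus lay far above all others, and sgZ3 and sgC overlapped. The sgZ1 level was 43.8-fold that of sgC, a log2 fold change of 5.45 ± 0.225 (adjusted p = 1.58e-08). For sgZ3 it was -0.16 ± 0.324 (adjusted p = 0.731), and for sgZ3 over sgZ1 -5.61 ± 0.234 (adjusted p = 2.81e-08). Neither call was lost in any alternative run, and without sgZ1 replicate 2 and sgZ3 replicate 3 the sgZ1 value was 5.5 ± 0.168. The value over both guides, 2.65, averages groups that differ and describes neither. ABCC2 ranked 113 from the top of 14732 tested genes by log2 fold change in sgZ1 over sgC, so other genes rose more. In bulk RNA, more cells with ABCC2 and more ABCC2 RNA per cell cannot be told apart.

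ABCC3, or MRP3, exports conjugates and bile acids across the basolateral membrane. ABCC3 (chr17:50634777-50692252, plus strand) had 31.5, 31.8 and 38.1 CPM in sgZ1, 43.1, 49.1 and 48.7 CPM in sgZ3 and 53.6, 49.4 and 51.7 CPM in sgC. The groups did not overlap, with sgZ1 lowest and sgC highest. It fell by 0.61 ± 0.104 on the log2 scale in sgZ1 (adjusted p = 0.00116), which is 34.5% lower than sgC. In sgZ3 the value was -0.13 ± 0.103 (adjusted p = 0.322), which passed with library totals alone (adjusted p = 0.05 after rounding), and sgZ3 over sgZ1 was 0.48 ± 0.104 (adjusted p = 0.00523). Over both guides the value was -0.37 ± 0.0882 (adjusted p = 0.00833), and that call was lost without sgC replicate 1 (adjusted p = 0.056). Per kilobase of exon, ABCC3 stood at 5.36 ± 0.216 CPM in sgC and ABCC2 at 0.0902 ± 0.00751 CPM.

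In the family, ABCC1 (MRP1) averaged 89.8 ± 18.9 CPM in sgZ1, 73.7 ± 13.5 CPM in sgZ3 and 70.4 ± 9.3 CPM in sgC and did not pass against sgC (adjusted p = 0.145 and 0.785 for sgZ1 and sgZ3). ABCC4, which exports cyclic nucleotides and prostaglandins, did not pass against sgC for either guide, but sgZ3 was higher than sgZ1 by 0.39 ± 0.0825 (adjusted p = 0.00461). In the list of 15 other transporters, 13 were tested, with 2 higher and 3 lower in sgZ1 (15.5% and 10.3% of all tested genes) and 4 higher and 2 lower in sgZ3 (19.2% and 17.1%). SLCO4A1, an organic anion uptake carrier, rose in both guides, by 0.46 ± 0.0869 in sgZ1 (adjusted p = 0.00251) and 0.98 ± 0.0874 in sgZ3 (adjusted p = 8.06e-05). SLC22A11, an organic anion carrier, fell in both, by 1.72 ± 0.255 in sgZ1 (adjusted p = 0.000434) and by 1.49 ± 0.256 in sgZ3 (adjusted p = 0.00151).

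**Figure D2:**
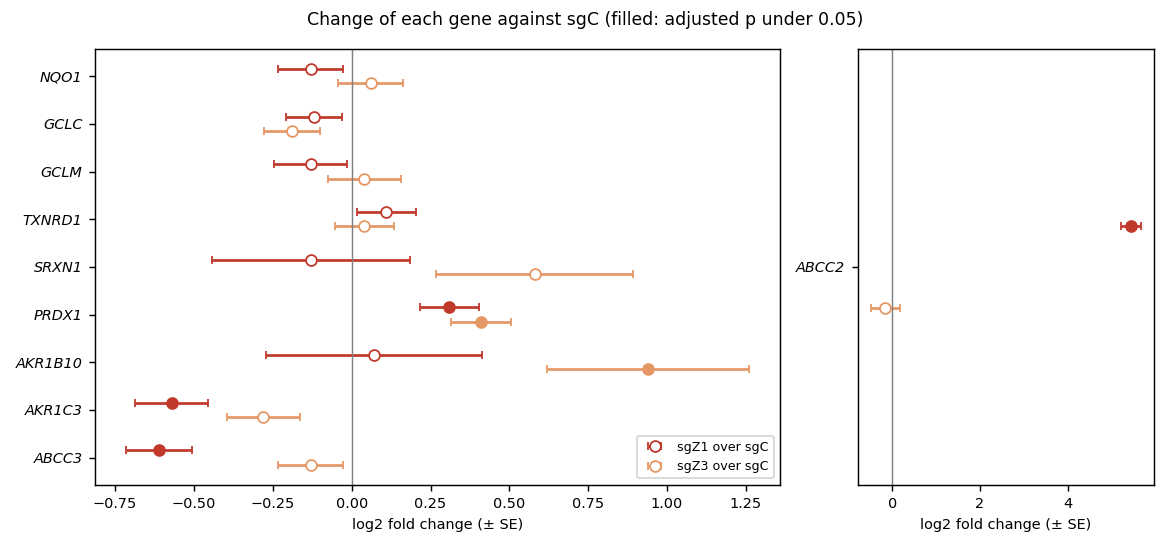
Log2 fold change of the 10 genes against sgC for sgZ1 and sgZ3, with bars of 1 standard error from edgeR; filled markers passed at a false discovery rate under 0.05 and open ones did not, and ABCC2 has an axis of its own. ABCC2 in sgZ1 stands at 5.45, and every other value lies between -0.61 and 0.94.

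**Figure D3:**
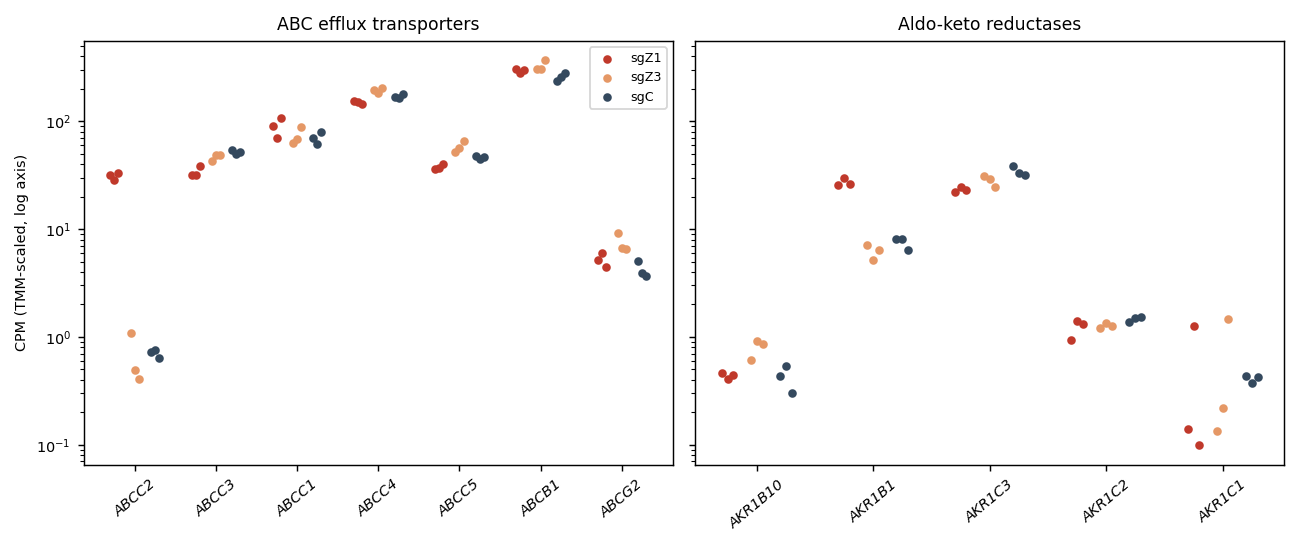
CPM per library of 7 ABC transporters in the left panel and 5 aldo-keto reductases in the right, on a log axis, with sgZ1, sgZ3 and sgC from left to right for each gene and a point per library. ABCC2 and AKR1B1 are high in sgZ1 alone, and ABCC1 overlaps between the groups. For AKR1C2, sgZ1 overlaps both other groups, and every sgZ3 library lies just below every sgC library.

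Several regulators of NRF2 changed in level, in both directions. NFE2L2 had 104, 84.0 and 89.7 CPM in sgZ1, 71.5, 69.9 and 82.0 CPM in sgZ3 and 102, 101 and 110 CPM in sgC. The sgZ3 libraries lay below all others, and sgZ1 overlapped sgC. It fell in sgZ3 by 0.48 ± 0.105 on the log2 scale (adjusted p = 0.00508), and the sgZ1 value of -0.17 ± 0.105 did not pass (adjusted p = 0.261). KEAP1 rose in sgZ3 by 0.54 ± 0.108 (adjusted p = 0.00329), with 264, 255 and 219 CPM in sgZ3 and 166, 174 and 170 CPM in sgC. In sgZ1 it had 181, 235 and 206 CPM, all above sgC, and the value of 0.29 ± 0.108 did not pass (adjusted p = 0.0659). BACH1, the repressor at antioxidant response elements, fell in both guides. It had 80.2, 74.5 and 61.1 CPM in sgZ1, 63.0, 64.4 and 73.4 CPM in sgZ3 and 111, 104 and 105 CPM in sgC. Its log2 fold change was -0.57 ± 0.111 for sgZ1 (adjusted p = 0.00293) and -0.67 ± 0.112 for sgZ3 (adjusted p = 0.00131).

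MAFG, a small MAF partner, rose by 0.43 ± 0.0878 in sgZ1 (adjusted p = 0.00409) and 0.37 ± 0.0881 in sgZ3 (adjusted p = 0.00828), a call that was lost for sgZ3 with library totals alone (adjusted p = 0.065). MAFF and MAFK did not pass for either guide. RBX1 rose in sgZ3 by 0.75 ± 0.156 (adjusted p = 0.00411), and CUL3 did not pass. NFE2L1, a related factor that controls proteasome genes, fell in sgZ3 by 0.75 ± 0.229 (adjusted p = 0.0258), a call lost without sgZ3 replicate 1 (0.11), sgZ3 replicate 2 (0.11), sgC replicate 1 (0.088) or sgC replicate 3 (0.11). NFE2L3 fell in sgZ1 by 0.45 ± 0.0913 (adjusted p = 0.00385). Of the 13 regulators, all tested, 2 rose and 2 fell in sgZ1 and 5 rose and 3 fell in sgZ3. Of all tested genes, 15.5% rose and 10.3% fell in sgZ1 and 19.2% rose and 17.1% fell in sgZ3. RNA levels do not show NRF2 protein or its activity.

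**Figure D4:**
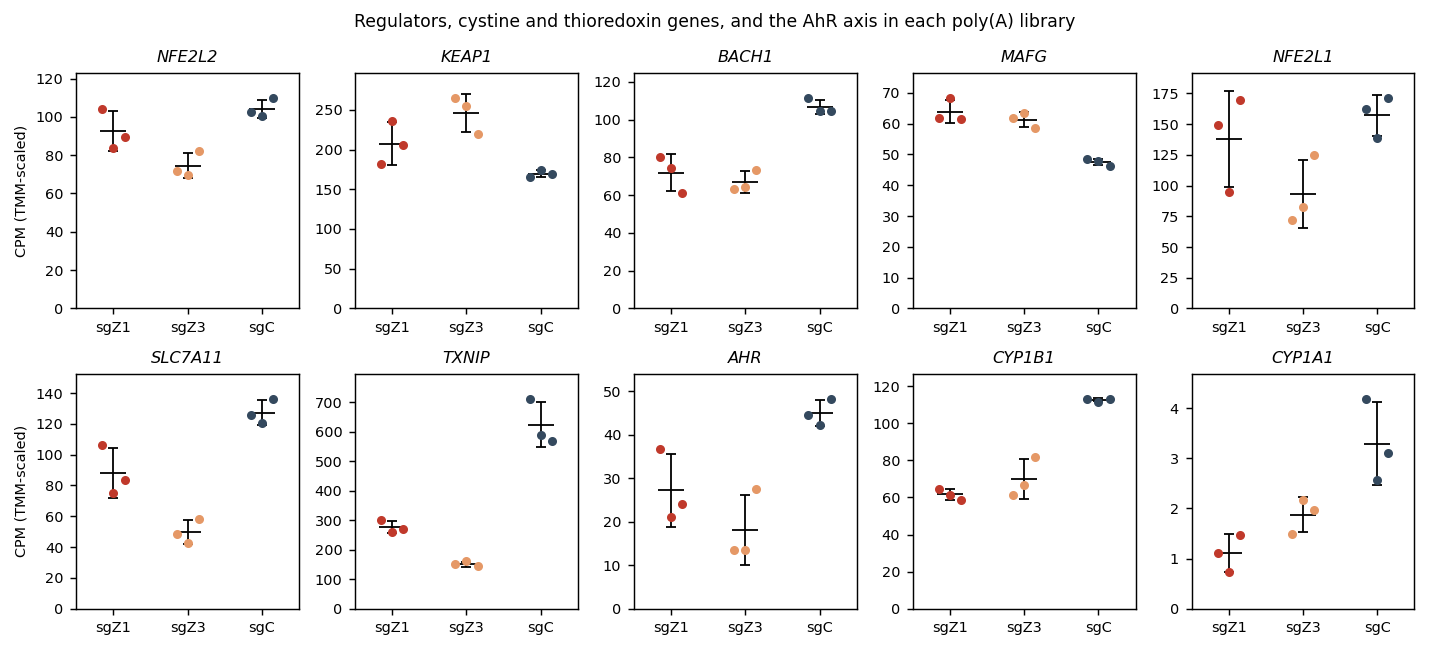
Level of 5 regulators in the upper row and of SLC7A11, TXNIP, AHR, CYP1B1 and CYP1A1 in the lower row, per library in CPM on linear axes from 0, with sgZ1, sgZ3 and sgC from left to right; points are libraries and bars are the mean and SD of 3. BACH1 is lower in all 6 libraries of the guides, at 61.1 to 80.2 CPM, than in sgC, at 104 to 111 CPM.

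The other lists of the defence programme held calls in both directions. Their counts are read against all tested genes, of which 15.5% were higher and 10.3% lower in sgZ1, and 19.2% higher and 17.1% lower in sgZ3. The list of 22 glutathione peroxidases and transferases had 17 tested, with 0 higher and 2 lower in sgZ1 and 3 higher and 2 lower in sgZ3. MGST2, a microsomal transferase, rose in sgZ3 by 0.46 ± 0.111 (adjusted p = 0.00855). Of 9 NADPH-supplying genes, 1 rose and 1 fell in sgZ1 and 2 rose in sgZ3, and PGD, of the pentose phosphate pathway, rose in sgZ3 by 0.36 ± 0.0813 (adjusted p = 0.00642). Of 10 tested haem, iron and quinone genes, 2 rose and 1 fell with each guide. HMOX2, the constitutive haem oxygenase, rose by 0.43 ± 0.0894 in sgZ1 (adjusted p = 0.00413) and 0.74 ± 0.0897 in sgZ3 (adjusted p = 0.00026). HMOX1, the inducible form and a classic NRF2 target, did not pass, with log2 fold changes of 0.31 ± 0.145 in sgZ1 (adjusted p = 0.142) and 0.09 ± 0.147 in sgZ3 (adjusted p = 0.646). In the list of superoxide, catalase and other targets, 11 were tested, with 1 higher and 1 lower in sgZ1 and 2 higher and 2 lower in sgZ3. MT2A, a metallothionein, rose by 0.52 ± 0.115 in sgZ1 (adjusted p = 0.00627) and 0.63 ± 0.115 in sgZ3 (adjusted p = 0.00202).

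In the list of 23 aldo-keto, carbonyl and aldehyde enzymes, 19 were tested, with 2 higher and 4 lower in sgZ1 (15.5% and 10.3% of all tested genes) and 4 higher and 4 lower in sgZ3 (19.2% and 17.1%). ALDH2, the mitochondrial acetaldehyde dehydrogenase, fell in both guides, by 0.6 ± 0.106 in sgZ1 (adjusted p = 0.00161) and by 0.57 ± 0.106 in sgZ3 (adjusted p = 0.00231). CBR4, a mitochondrial carbonyl reductase, fell by 0.43 ± 0.115 in sgZ1 (adjusted p = 0.0159) and by 0.67 ± 0.117 in sgZ3 (adjusted p = 0.00161). Its sgZ1 call was lost without sgZ1 replicate 3 (adjusted p = 0.062) or sgC replicate 1 (0.072). DCXR, which reduces dicarbonyl sugars, rose in sgZ1 by 0.67 ± 0.143 (adjusted p = 0.00475). In the list of the aryl hydrocarbon receptor, xenobiotic receptors and P450 enzymes, 11 of 19 were tested, with 0 higher and 5 lower in sgZ1 (15.5% and 10.3% of all tested genes) and 2 higher and 5 lower in sgZ3 (19.2% and 17.1%). The median log2 fold change there was -0.39 for sgZ1 and -0.38 for sgZ3, where that of all tested genes was 0.011 and -0.018. CYP1B1, a P450 induced by this receptor, had 64.5, 61.5 and 58.9 CPM in sgZ1, 61.5, 66.6 and 82.0 CPM in sgZ3 and 113, 112 and 113 CPM in sgC, so both guides lay below sgC. Its log2 fold change was -0.87 ± 0.108 for sgZ1 (adjusted p = 0.000119) and -0.68 ± 0.108 for sgZ3 (adjusted p = 0.001). AHR, the receptor, fell in sgZ3 by 1.3 ± 0.276 (adjusted p = 0.0055), and its sgZ1 value of -0.73 ± 0.268 did not pass (adjusted p = 0.0698). CYP1A1, low at 1.11 CPM in sgZ1, 1.88 CPM in sgZ3 and 3.29 CPM in sgC, fell in sgZ1 by 1.58 ± 0.274 (adjusted p = 0.00134) and in sgZ3 by 0.8 ± 0.263 (adjusted p = 0.0331). Its sgZ3 call was lost without sgC replicate 1 (adjusted p = 0.16), sgZ3 replicate 1 (0.12), sgC replicate 3 (0.076) or sgZ3 replicate 2 (0.06), and in DESeq2 (0.053).

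Of conjugating enzymes, 9 of 21 were tested, with 1 higher and 1 lower in sgZ1 (15.5% and 10.3% of all tested genes) and 3 higher and 0 lower in sgZ3 (19.2% and 17.1%). SULT1A1, a phenol sulfotransferase, averaged 4.04 ± 0.332 CPM in sgZ1, 1.43 ± 0.219 CPM in sgZ3 and 1.33 ± 0.0884 CPM in sgC, and rose in sgZ1 by 1.6 ± 0.181 (adjusted p = 5.3e-05). UGT1A6, a glucuronosyltransferase, rose in sgZ3 by 0.7 ± 0.117 (adjusted p = 0.00141) and UGT1A1 by 0.85 ± 0.153 (adjusted p = 0.00193), which share exons, so their counts may be split. Across the 11 lists, 139 of 174 genes were tested. Of these, 12 rose and 24 fell in sgZ1 (25.9%, against 25.8% of all genes), and 34 rose and 23 fell in sgZ3 (41%, against 36.3%). The lists were chosen with earlier results of these data known.

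**Figure D5:**
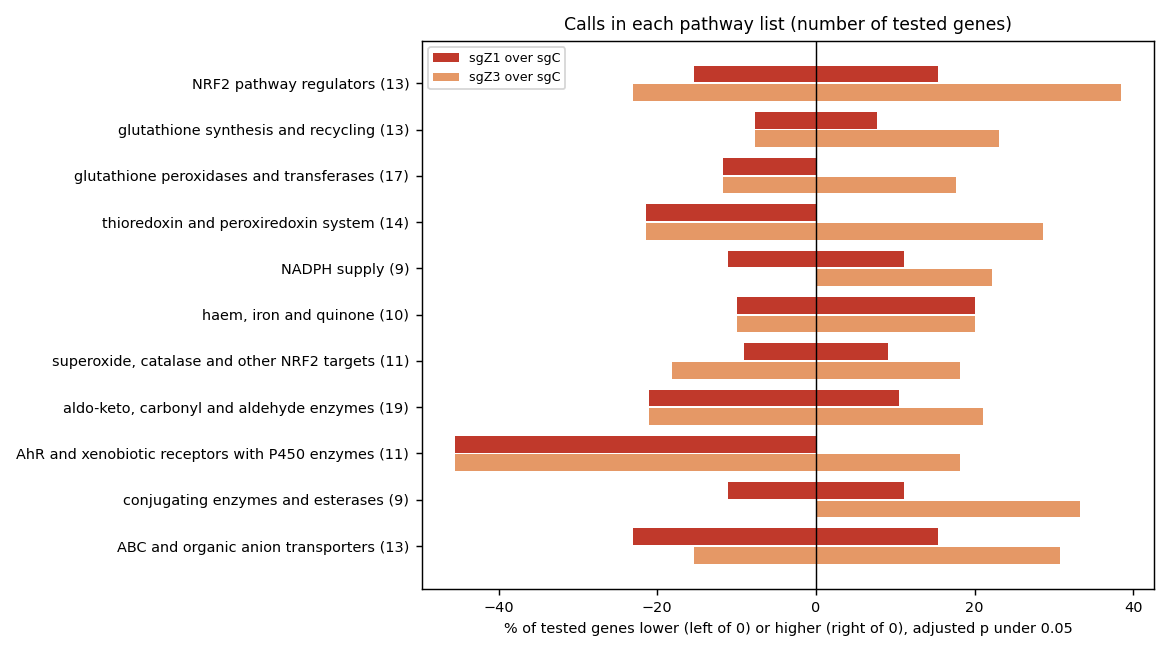
Percent of the tested genes of each list that were called lower, left of 0, or higher, right of 0, against sgC in sgZ1 (upper bars) and sgZ3 (lower bars), from edgeR at a false discovery rate under 0.05; the number tested stands in parentheses. In the receptor and P450 list, 5 of 11 genes were lower with each guide, where 10.3% of all tested genes were lower with sgZ1 and 17.1% with sgZ3.

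Levels per kilobase of exon in sgC order the 10 genes as PRDX1 at 351 ± 30.7, NQO1 at 118 ± 8.15, TXNRD1 at 75.1 ± 1.51, GCLM at 12.2 ± 0.169, GCLC at 9.17 ± 0.304, AKR1C3 at 7.6 ± 0.804, SRXN1 at 6.3 ± 1.82, ABCC3 at 5.36 ± 0.216, AKR1B10 at 0.243 ± 0.0684 and ABCC2 at 0.0902 ± 0.00751 (CPM per kilobase, SD, n = 3). SRXN1 overlaps its neighbours AKR1C3 and ABCC3 within 1 SD, and the other neighbours in this order do not overlap. The exon length counts every annotated exon of a gene, also those its main transcript may lack. The order therefore depends on the annotation, which the SD does not cover. For the 2 genes called in sgZ3 over sgZ1, the tested genes with the most similar profile were found, by the root mean square difference of mean-centred log2 CPM over 9 libraries, among genes of at least 2 CPM on average. For ABCC2 they were TUBB4A at a difference of 0.382, IRX4 at 0.387 and CD40 at 0.39. TUBB4A averaged 23.3 CPM in sgZ1, 0.287 CPM in sgZ3 and 0.355 CPM in sgC. For ABCC3 they were B3GNT9 at 0.041, TCN2 at 0.07 and TMC4 at 0.077, and B3GNT9 averaged 15.5 CPM in sgZ1, 21.9 CPM in sgZ3 and 24.5 CPM in sgC.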

How the data were processed

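RNA was measured in 9 poly(A) libraries of DLD1 cells, 3 per guide, grouped by sample title. The description of 1 sgC library names the ribosomal RNA table, and it was kept as poly(A) by its title and molecule. The authors deposited whole-number read counts per gene, not normalized. Per the submitters' processing notes, the tools include HTSeq, STAR 2.5.2b, DESeq2 and SAMtools 1.9, on hg38 (GRCh38). Neither annotation release nor strand setting is given there or in the labels. The series holds 18 libraries, and the 9 ribosomal RNA libraries were not used.

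The fits used edgeR 4.0.16 and limma 3.58.1 under R 4.3.3. After filterByExpr and TMM scaling, a robust quasi-likelihood model with guide as its sole term was fitted to the 9 libraries, and p-values were adjusted by Benjamini-Hochberg over all 14732 tested genes. Of 47021 genes, 18022 had 0 counts throughout. The common biological coefficient of variation was 12.7%. CPM uses TMM-scaled library sizes, and each SE is the log2 fold change divided by the root of its F statistic. Intervals cover the spread between libraries only. Coordinates and exon lengths are from GENCODE 29 (GRCh38), in which 99.2% of tested IDs were found, and promoter sequences are from RefSeq. An exon length joins all annotated exons of a gene.

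The 10 genes and the lists were chosen with earlier results of these data known. Named genes were the 10, regulators, near copies and family members, up to 3 called genes per list and guide with the smallest adjusted p, and the 3 most similar genes for a member that differed between guides; 1 gene that this rule takes is not reported here. Replicates of a group were not duplicates. Alternatives were DESeq2 1.42.0, other scalings and filters, the compared groups alone, a replicate block, leaving out each library, and 7 libraries without sgZ1 replicate 2 and sgZ3 replicate 3.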

Additional observations from a re-analysis of the deposited data

Results flagged for a closer look

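Of the genes named, 31 had different effects with the 2 guides, by the test of sgZ3 over sgZ1 in edgeR with Benjamini-Hochberg adjustment. That test called 28.6% of all tested genes. Many of the named genes were picked for a small adjusted p in these data, so nothing particular to them is read from the 31. Among the 10 genes, those called were ABCC2 at -5.61 and ABCC3 at 0.48 on the log2 scale. Among regulators and glutathione genes they were NFE2L2 at -0.31, NFE2L3 at 0.35, SLC7A11 at -0.83, CHAC2 at 0.49, GSTM3 at 0.55, GSTK1 at 0.38 and MGST2 at 0.65. In the redox and haem lists they were TXNIP at -0.87, SESN3 at -0.53, PRDX4 at 0.59, HMOX2 at 0.31 and UGDH at 0.39. Among metabolising enzymes they were AKR1B1 at -2.14, DCXR at -0.41, ALDH7A1 at -0.33, CYP3A7 at 1.78, POR at 0.43, SULT1A1 at -1.49, UGT1A6 at 0.89 and UGT1A1 at 0.89. Transporters were SLCO4A1 at 0.52 and ABCC4 at 0.39, and the targeted gene ZNF692 was at -0.48. The genes most like ABCC2 were TUBB4A at -6.33, IRX4 at -8.13 and CD40 at -7, and those most like ABCC3 were B3GNT9 at 0.51, TCN2 at 0.61 and TMC4 at 0.36; these were picked for a pattern that differs between guides, so their values are a description. IRX4 had 1, 0 and 0 counts in sgZ3 and CD40 had 3, 0 and 0, so their fitted values depend on the prior count and are no bounds. CYP3A7 had 3, 6 and 2 counts in sgZ1 and 7, 13 and 11 counts in sgZ3. Every sgZ1 library was below the 0.5 CPM cutoff of the low-count filter. CYP3A7 thus entered the test through the groups where it is higher, and its value is a description.

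Some of these calls were lost when a library was left out. NFE2L2, DCXR and TMC4 lost theirs with most of the libraries, and in the main fit they were at adjusted p of 0.043, 0.049 and 0.031. Calls lost with other settings are not listed here. NFE2L2 lost its call without sgZ1 replicate 1 (adjusted p = 0.19), sgZ3 replicate 2 (0.16), sgZ3 replicate 1 (0.14), sgC replicate 1 (0.073), sgZ1 replicate 3 (0.071), sgC replicate 2 (0.067) or sgC replicate 3 (0.063). DCXR lost it without any library but sgZ1 replicate 1, at adjusted p of 0.055 to 0.14, and TMC4 without any but sgZ1 replicate 3, sgZ3 replicate 3 and sgC replicate 3, at 0.05 to 0.12. CHAC2 lost it without sgZ1 replicate 1 (0.11), sgZ1 replicate 3 (0.1), sgZ3 replicate 1 (0.1) or sgZ3 replicate 2 (0.064). HMOX2 lost it without sgZ1 replicate 1 (0.094), sgZ3 replicate 1 (0.066) or sgZ3 replicate 2 (0.086), and GSTK1 without the same (0.068, 0.052 and 0.081). CYP3A7 lost it without sgZ1 replicate 1 (0.057), sgZ1 replicate 3 (0.058) or sgZ3 replicate 2 (0.061), and ALDH7A1 without sgZ3 replicate 1 (0.076). GSTM3 lost it without sgZ1 replicate 1 (0.056) or sgZ3 replicate 2 (0.05), PRDX4 without sgZ1 replicate 3 (0.052), and ZNF692 without sgZ1 replicate 3 (0.091) or sgZ3 replicate 3 (0.052).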

How the results depend on the processing

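Of 12 called values of the 10 genes, 7 kept their call in every alternative run; 21 of 211 alternative values lost it and 0 reversed, and with the other named genes 96 of 156 kept it, with 254 of 2724 lost. Without sgZ1 replicate 2 and sgZ3 replicate 3 the tested genes called numbered 7409 over both guides, 5894 for sgZ1, 8246 for sgZ3 and 7932 for sgZ3 over sgZ1, against 4885, 3807, 5355 and 4209. Of the 10 genes, 4 were then called for sgZ3, against 55.3% of the 14923 genes tested in that run. For sgZ3 over sgZ1, 5 were called, against 53.2%. A mean of at least 10 CPM, which tests fewer genes, gave 2527 for sgZ1 and 2676 for sgZ3 over sgZ1. For sgZ3, upper-quartile factors and library totals alone each called 4 of the 10, and DESeq2 and the replicate block 1 each, AKR1B10 being lost (adjusted p = 0.16 in DESeq2 and 0.056 with the block). Leaving out a library gave 2201 to 6337, 2129 to 4855, 3080 to 6796 and 2501 to 6153 genes, and 1 to 4, 3 to 4, 1 to 3 and 2 to 5 of the 10, for these comparisons in the same order. Library totals alone shifted the median of all genes by -0.101 over both guides, -0.155 for sgZ3 and -0.109 for sgZ3 over sgZ1, and cut the share of calls that were higher to 36.6%, 29.6% and 27.0%, against 56.0%, 52.9% and 44.7%; upper-quartile factors gave 45.9% over both guides and 41.5% for sgZ3. Values that took the other sign all missed the threshold before and after. With library totals alone they were -0.03 for TXNRD1 over both guides, -0.01 for PRDX1 in sgZ3 over sgZ1, and, for sgZ3, -0.09 for NQO1 and -0.11 for GCLM and TXNRD1. With upper-quartile factors sgZ3 gave -0.01 for NQO1 and -0.03 for GCLM and TXNRD1. In the 7 libraries they were -0.02 for TXNRD1 over both guides, 0.06 for SRXN1 in sgZ1, and, for sgZ3, -0.04 for GCLM, -0.07 for TXNRD1 and 0.06 for ABCC2. Leaving out a library gave the other sign in 0.02 for NQO1 over both guides (sgZ3 replicate 3 or sgC replicate 1) and 0.02 for GCLM (sgZ1 replicate 3), 0.06 and 0.05 for SRXN1 in sgZ1 (sgZ1 replicate 2 or sgC replicate 1), -0.15 for AKR1B10 in sgZ1 (sgC replicate 3), and, for sgZ3, -0.02 for NQO1 (sgZ3 replicate 1), -0.02 for TXNRD1 (sgZ3 replicate 3), and 0.01 and 0.11 for ABCC2 (sgZ3 replicate 2 or 3). Over all libraries left out in turn these values ran from -0.08 to 0.02 for NQO1 over both guides, -0.35 to 0.06 for SRXN1 and -0.15 to 0.26 for AKR1B10 in sgZ1, and -0.02 to 0.16 for NQO1 and -0.65 to 0.11 for ABCC2 in sgZ3. The cause of these changes was not tested. Replicate numbers are shared between groups, and same-numbered libraries correlated at -0.121 to 0.249. Of these pairs 3 of 9 were above 0.1, and 4 of 9 libraries were closest to their own number. The main fit did not pair the libraries, and whether a number marks a shared batch was not tested. The replicate block called 5488, 4202, 5974 and 5005 genes, against 4885, 3807, 5355 and 4209 in the main fit. Genes below about 1 CPM, such as AKR1B10 and ABCC2 outside sgZ1, rest on 7 to 17 counts per library.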

Other observations

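The 5 other tested genes within 250000 bases of ABCC2 on chromosome 10 were looked up after its values were seen. CUTC, a copper-binding protein gene, was higher in sgZ1 than in sgC by 1.01 ± 0.122 on the log2 scale (adjusted p = 9.35e-05, edgeR's quasi-likelihood test), at 43.4 CPM in sgZ1, 27.4 CPM in sgZ3 and 21.6 CPM in sgC. SLC25A28, a mitochondrial iron carrier, was higher by 0.61 ± 0.128 (adjusted p = 0.00438). COX15 (0.03 ± 0.085, adjusted p = 0.84), DNMBP (0.29 ± 0.209, 0.34) and ENTPD7 (0.31 ± 0.111, 0.06) did not pass. For sgZ3 over sgZ1 the log2 fold changes were -0.89 for DNMBP (adjusted p = 0.00885), -0.66 for CUTC (0.00176), -0.34 for COX15 (0.0111) and 0.34 for ENTPD7 (0.0372), and that of SLC25A28, -0.06, did not pass (0.764). None of the 5 came near the 43.8-fold difference of ABCC2. Of all tested genes, 15.5% were higher in sgZ1 than in sgC and 28.6% were called in sgZ3 over sgZ1. Whether the region differs from other regions was not tested.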
